A study of Mus musculus with 9 samples.

Results

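The 37 genes of the mouse mitochondrial chromosome were followed in CD8+ T cells with normal and with lowered levels of Bdh1 and Oxct1, a pair of genes for the breakdown of ketone bodies. Members were all genes of that chromosome in the GENCODE M21 annotation of GRCm38, whose names start with mt-, and they were 37 of the 55471 genes counted in each library: 13 mRNA genes, 2 rRNA genes and 22 tRNA genes. No measured value entered the choice of single genes. All cells came from OT-I mice, whose CD8+ T cells carry a receptor for an ovalbumin peptide. The control group (n = 4 libraries) was Bdh1-WT and carried an shRNA against firefly luciferase (shCtrl). The DKO group (n = 5) was Bdh1-KO and carried an shRNA against Oxct1 (shOxct1), so the second gene was knocked down and not deleted. Both groups were stimulated in culture with antibodies to CD3 and CD28 and with IL-2, transduced, sorted on the Ametrine reporter and injected into naive C57BL/6 mice of the CD45.1 type. The hosts kept their own immune cells and were infected a day later with LmOVA, Listeria that make ovalbumin. On day 7 after infection, cells were sorted from the spleen on CD45.2 and Ametrine, and polyA RNA was sequenced. The labels do not give the ages of the animals or say whether each library came from a mouse of its own, so p-values measure only the spread between libraries, which may be technical.

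Mitochondrial DNA is a small circle that is copied into RNA from both strands by the polymerase POLRMT, with TFAM and TFB2M at the promoters. Each strand gives one long precursor, from which the rRNAs and mRNAs are freed mostly where tRNAs lie between them and are cut out. The mRNAs encode core subunits of the respiratory chain and ATP synthase, and most of them then receive a polyA tail. BDH1 and OXCT1 are mitochondrial enzymes that break down ketone bodies, and T cells in an infection draw on respiration for part of their energy.

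Libraries held 45205993 to 59853080 counts in genes, and levels are given relative to that total as CPM, the usual scaled count of a library. The targeted genes followed the labels. Oxct1 was at 73.98, 61.9, 59.8 and 58.5 CPM in control libraries 1 to 4 and at 4.60, 5.41, 5.08, 5.53 and 5.09 CPM in DKO libraries 1 to 5 (a log2 ratio of DKO to control of -3.61, with adjusted p = 4.58e-09 by the quasi-likelihood test of edgeR and Benjamini-Hochberg). Bdh1 had means of 30.6 ± 3.71 and 10.6 ± 1.21 CPM (SD, 4 control and 5 DKO libraries), a log2 ratio of -1.52 (edgeR, adjusted p = 1.36e-04). The groups did not overlap for either gene. All 8 CD8 T cell markers on a fixed list were above 1 CPM, with 663 to 825 CPM for Cd8a, while Cd4 was at 0 to 0.664 CPM. Control 1 stood apart from the other controls. The chi-square statistic per degree of freedom of its counts against each of them was 169.5 to 201.2, against 25.0 to 42.3 among controls 2, 3 and 4, and the unmapped share of its reads was 16.7%, where the other 8 libraries had 10.3 to 12.3%. For the mitochondrial genes and regulators whose log2 ratio moved by over 1.5 times or changed sign without control 1, that value is given as well.

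Only part of the chromosome gave counts. Of the 37 genes, 12 had a mean of 10 or more counts per library and passed the filter on low counts: both rRNAs, 8 mRNAs (mt-Nd1, mt-Nd2, mt-Co1, mt-Nd3, mt-Nd4, mt-Nd5, mt-Nd6 and mt-Cytb) and the tRNAs mt-Tq and mt-Tp. Another 11 genes had counts with a mean under 10, among them the mRNAs mt-Co2, mt-Atp6 and mt-Co3 and the tRNAs mt-Tl1, mt-Ti, mt-Tm, mt-Ta, mt-Tc, mt-Ts1, mt-Te and mt-Tt. The last 14 had 0 counts in all 9 libraries: the mRNAs mt-Atp8 and mt-Nd4l and 12 tRNAs (mt-Tf, mt-Tv, mt-Tw, mt-Tn, mt-Ty, mt-Td, mt-Tk, mt-Tg, mt-Tr, mt-Th, mt-Ts2 and mt-Tl2). A count of 0 allows up to 3 counts, which is 0.0501 to 0.0664 CPM in a single library, 0.0145 CPM over the control group and 0.0117 CPM over the DKO group. These limits cover counting error only and hold for reads that were counted: reads that match more than one place, or that touch 2 genes, are not part of such counts. mt-Ty, mt-Tw and mt-Tn, at 0 here, had 2601, 309 and 123 counts in the columns described below, so their 0 is not a limit on their level.

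**Figure D1:**
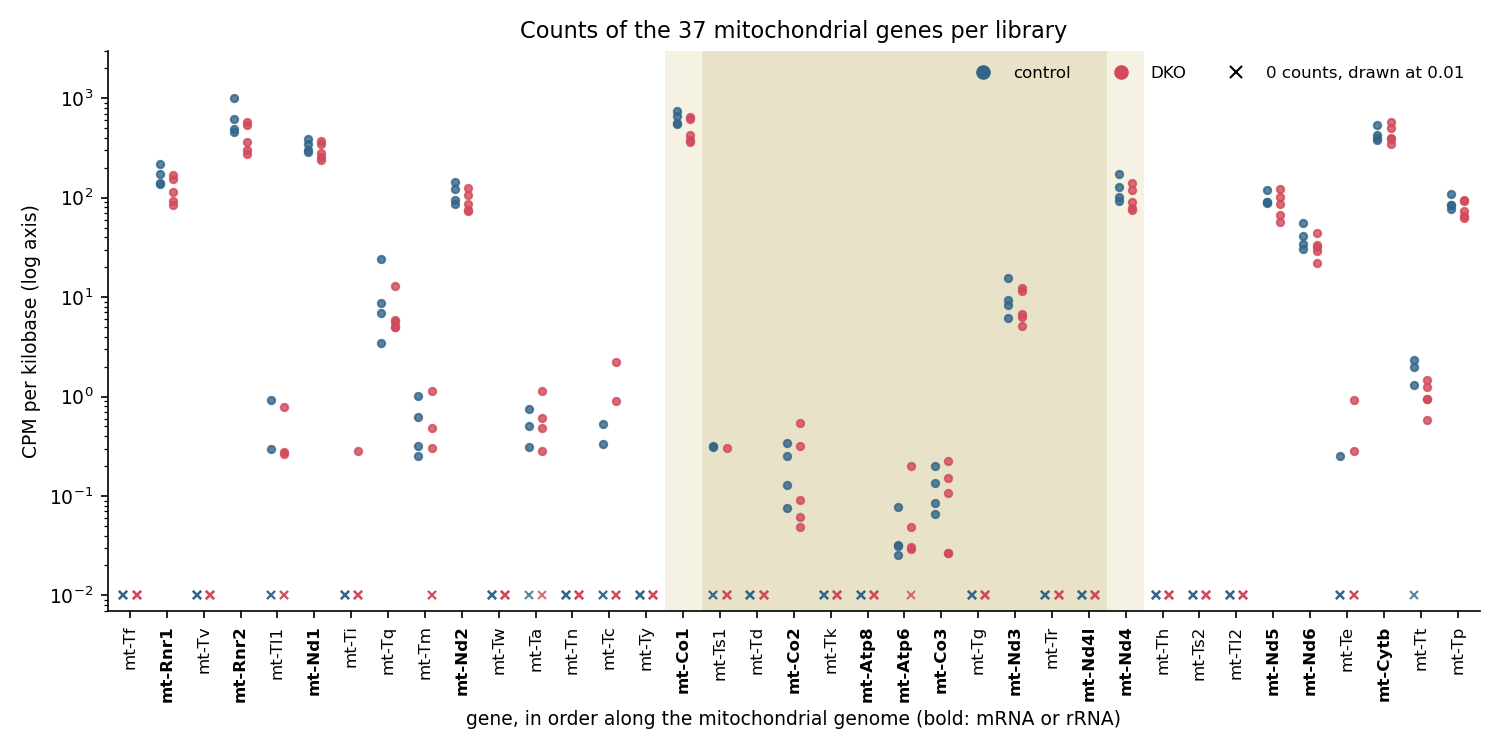
CPM per kilobase of gene (log axis) for the 37 genes in their order along the mitochondrial genome, 1 point per library; crosses mark 0 counts. Dark shading marks the 11 genes that lie wholly between the first and the last base matched on chromosome 1, and pale shading the 2 genes partly inside that stretch: mt-Nd3 is the single shaded gene wholly inside with a mean over 10 counts, at 162.9 counts per library.

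The empty stretch of mRNA genes coincided with a stretch whose mRNA genes have near-identical pseudogenes in the nuclear genome. When all mitochondrial transcripts were compared with nuclear transcripts of GENCODE M21 by blastn, 7 pseudogenes of chromosome 1 matched mitochondrial mRNAs at 99% identity or more over at least 100 bases. They lie side by side on the minus strand of GRCm38, and their matching bases run from chr1:24611535-24616188, against chrM:6390-11042, a length of 4653 bases. Of these, 4136 lie in a matched pseudogene, and the other 517, between annotated pseudogenes, were not compared. Only 2 bases differed within the matched genes. In the comparisons below, positions are counted from 1 at the 5' end of the mitochondrial gene, the mitochondrial base is named first, and the sequences are from GENCODE M21 transcripts. The first pair shows A1066T at the start of the shared stretch, inside mt-Co1, and the second shows T3C in the third base of mt-Nd3, with the differing base in capitals; the third pair shows that the first 60 bases of mt-Co2 are the same in both genomes.
mt-Co1 (chrM:6390-6422): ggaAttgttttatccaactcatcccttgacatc
Gm29216 (chr1:24616156-24616188, minus strand): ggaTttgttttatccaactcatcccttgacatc
mt-Nd3 (chrM:9459-9490): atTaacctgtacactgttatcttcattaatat
Gm28438 (chr1:24613088-24613119, minus strand): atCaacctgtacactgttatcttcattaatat
mt-Co2 (chrM:7013-7072): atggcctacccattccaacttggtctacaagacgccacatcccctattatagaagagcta
Gm28661 (chr1:24615506-24615565, minus strand): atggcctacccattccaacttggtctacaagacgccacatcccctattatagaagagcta

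Within this stretch lie 11 members whole: mt-Co2, mt-Atp8, mt-Atp6, mt-Co3, mt-Nd3 and mt-Nd4l, and the tRNAs mt-Ts1, mt-Td, mt-Tk, mt-Tg and mt-Tr. Among the bases not compared are 161 of the 204 of mt-Atp8, all but 3 of mt-Ts1 and the whole of the other 4 tRNAs, so those members are placed here by position alone. Together they held 1593 counts over the 9 libraries, against 1415409 for the other 26 members. Of the 11, 6 had 0 counts throughout, and of the other 26, 8 did, all of them tRNAs. mt-Nd3, a complex I subunit with a differing base, had 1466 of the 1593 counts. mt-Co1, which codes for the catalytic subunit of complex IV, has 31.3% of its length inside the stretch, and mt-Nd4 of complex I has 63.6%. Dividing by the length outside the stretch alone would raise their mean counts per kilobase from 28489 to 41445 and from 5687 to 15611. The coordinates of the 7 matches stayed in step up to mt-Nd3 and were out of step by 1 base from mt-Nd4l on. Between them lies mt-Tr, the arginine tRNA, which holds a run of 8 A (in capitals), the longest run of A among the 37 genes together with one in mt-Nd2.
mt-Tr (chrM:9808-9875): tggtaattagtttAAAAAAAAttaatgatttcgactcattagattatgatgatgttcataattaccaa

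The pseudogenes on chromosome 1 were counted where the mitochondrial genes were not. Gm28661 had 2313 counts over all libraries, against 65 for mt-Co2, a subunit of complex IV with which it is identical over 681 bases. Gm10925 had 1615 counts, against 17 for mt-Atp6, an ATP synthase subunit, and Gm28437 had 1711, against 42 for mt-Co3, the third complex IV subunit. In these 3 pairs the nuclear gene was higher in 9 of 9 libraries, by 35.6, 95.0 and 40.7 times over the summed counts. In the pairs of mt-Co1, mt-Nd3 and mt-Nd4 the nuclear gene was higher in 0 of 9 libraries. Gm29216 had 1257 counts against 396134 for mt-Co1, and Gm28438 had 70 against 1466 for mt-Nd3. The remaining pairs are named after their values were seen: Gm28439 had 31 counts against 70532 for mt-Nd4, and Gm10222 had 4 against 0 for mt-Nd4l. The 4 most counted pseudogenes were lower in DKO on average, as log2 ratios of -0.23 (Gm28661), -0.28 (Gm10925), -0.34 (Gm28437) and -0.46 (Gm29216), and none passed the test (adjusted p = 0.673, 0.536, 0.553 and 0.392 in edgeR). Without control 1 that of Gm29216 was -0.18. In Gm28661 the CPM were 6.00, 5.14, 6.53 and 4.16 in control and 3.41, 6.01, 3.57, 6.15 and 3.89 in DKO, with DKO libraries 1, 3 and 5 below all others. Another copy, also named after its values were seen, is Gm13340 on chromosome 2, which matches the whole of mt-Co1 at 97.6% identity and had 431 counts. Reads that match 2 places equally well are counted for neither gene in this file layout, and 5.80 to 6.79% of reads were multimapping, from whatever source. The part of the shared sequence in the low counts was not tested, since the reads were not analysed here. Low counts of mt-Co2, mt-Atp6, mt-Co3, mt-Atp8 and mt-Nd4l can therefore not be read as low expression.

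**Figure D2:**
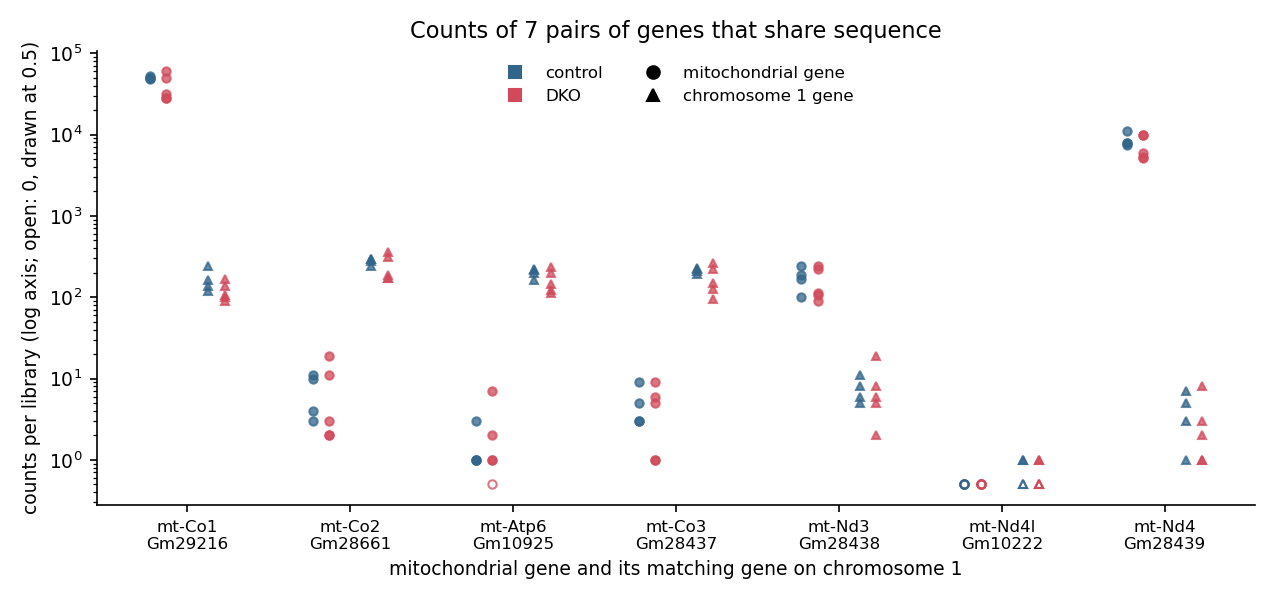
Counts per library (log axis) of 7 mitochondrial genes (circles) and the chromosome 1 pseudogenes that match them (triangles); open symbols mark 0. The triangles lie above the circles for mt-Co2, mt-Atp6 and mt-Co3 in 9 of 9 libraries, and far below them for mt-Co1 and mt-Nd4.

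A second limit came from overlapping genes. In the unstranded column, a read that touches genes on both strands is counted for neither, and the columns that count 1 strand at a time do not lose it. The libraries did not keep strand: 49.9 to 50.1% of the summed strand counts were in the first strand column, and for mt-Rnr1 it was 51.0%. mt-Nd5 and mt-Nd6, both complex I subunits, are copied from opposite strands and overlap by 14 bases at their 3' ends, shown in capitals in the last 40 bases of each gene.
mt-Nd5 (chrM:13526-13565, plus strand): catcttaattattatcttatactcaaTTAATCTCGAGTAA
mt-Nd6 (chrM:13552-13591, minus strand): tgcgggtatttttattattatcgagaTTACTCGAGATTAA
The summed strand columns held 3.75 times the unstranded count for mt-Nd6 and 1.30 times for mt-Nd5, against 1.02 times for mt-Co1 and 1 time for the rRNAs. Without strand, reads of mt-Nd6 and of the opposite strand under it cannot be told apart, and the same holds for the tRNAs below. In the summed columns, a read that touches genes on both strands is counted for each of them. mt-Co1 itself went from 396134 to 402766 counts. The tRNA values below thus count reads that touch the gene and are not levels of the tRNA. mt-Ts1, a serine tRNA that overlaps the end of mt-Co1 by 3 bases on the other strand, went from 3 to 3825 counts. mt-Ty, the tyrosine tRNA, went from 0 to 2601 counts, or 5.07 ± 2.67 CPM in control and 5.12 ± 2.30 in DKO (SD, n = 4 and 5). mt-Tw was at 0.733 and 0.501 CPM on average there, and mt-Tn at 0.258 and 0.227. Summing both strand columns brought 20 members past the filter, the additions being mt-Tw, mt-Ta, mt-Tn, mt-Tc, mt-Ty, mt-Ts1, mt-Te and mt-Tt. None of the 20 passed the test in that fit, and 1 had an unadjusted p under 0.05 (lowest adjusted p = 0.275 in edgeR). With the strand columns counted, 11 members still had 0 counts, 9 tRNAs and the mRNAs mt-Atp8 and mt-Nd4l.

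The share of mitochondrial transcripts in the libraries was small and overlapped between the groups. All 37 genes together took 0.421, 0.297, 0.385 and 0.283% of counts in genes in control libraries 1 to 4, and 0.205, 0.342, 0.247, 0.361 and 0.212% in DKO libraries 1 to 5. The means were 0.347% ± 0.0674 (SD, n = 4) and 0.274% ± 0.0733 (SD, n = 5). DKO libraries 1, 3 and 5 lay below every control, and DKO 2 and 4 lay within the control range. The difference of -0.0730 percentage points was close to the within-group SD of 0.0708, and was -0.0481 without control 1. mRNAs took 0.228% ± 0.0330 in control and 0.196% ± 0.0478 in DKO, rRNAs 0.118% ± 0.0443 and 0.0771% ± 0.0256, and tRNAs 0.000694% ± 0.000152 and 0.000590% ± 0.000118 (SD, n = 4 and 5). Without control 1 the control means were 0.224% for mRNAs, 0.0967% for rRNAs and 0.000620% for tRNAs, and the rRNA difference went from -0.0407 to -0.0196 percentage points. Because the members were chosen as a group, no p-value is given for these sums. In bulk RNA, fewer cells with many mitochondrial transcripts and fewer such transcripts per cell cannot be told apart.

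Gene by gene, no member passed the test. The quasi-likelihood test of edgeR called 0 of 12 members at an adjusted p under 0.05, where 2.83% of all 14918 genes tested were called. By DESeq2 and limma-voom it was also 0 of 12. At an unadjusted p under 0.05 edgeR counted 1 of 12, mt-Rnr2, which was lower in DKO, and 8.25% of all genes were lower in DKO at that level. DESeq2 and limma-voom counted 1 and 2 of 12 at that level. Over all genes, edgeR put 7.74% higher in DKO at that level, and DESeq2 and limma-voom called 8.41 and 6.68% of the genes they gave an adjusted p, at 0.05. No member had groups that did not overlap, against 8.68% of all genes. The fold changes lay below 0 in 11 of 12 members, with a median of -0.25 on the log2 scale, while 51.4% of all genes tested lay below 0 and their median was -0.01. Without control 1 the median of the 12 was -0.15. The members come from shared precursors in the same libraries, so their directions are not separate observations. DKO 1 was among the 3 lowest of the 9 libraries in 12 of 12 members, DKO 5 in 10 and DKO 3 in 9, while DKO 4 was among the 3 highest in 10 and DKO 2 in 6. In mt-Rnr2, for example, the DKO libraries spanned 433 to 918 CPM, a range that took in 2 of the 4 controls.

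**Figure D3:**
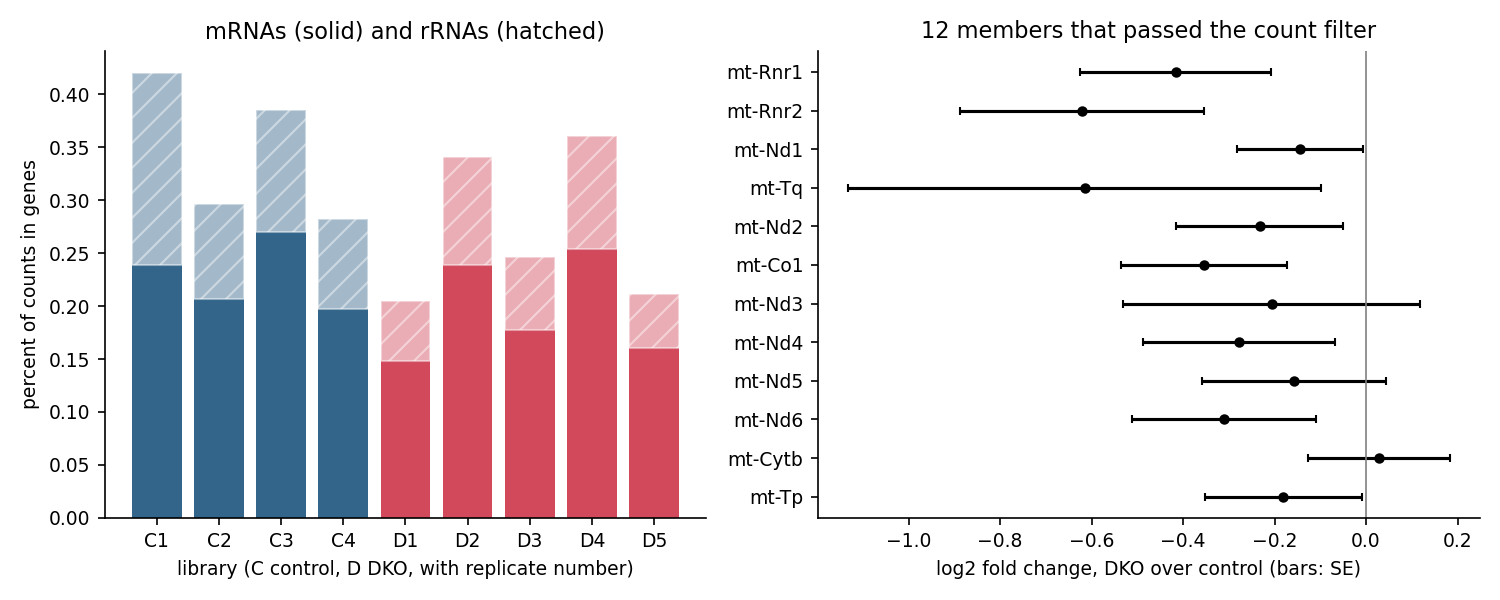
Left, percent of counts in genes taken by the mitochondrial mRNAs (solid) and rRNAs (hatched) in each library, with totals from 0.205 to 0.421%. Right, log2 ratio of DKO over control with its standard error for the 12 members tested; 11 lie below 0 and none passed the test.

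The rRNAs form the core of the mitochondrial ribosome. mt-Rnr2, the rRNA of the large subunit (chrM:1094-2675), was at 1605, 768, 988 and 716 CPM in control and at 479, 858, 578, 918 and 433 CPM in DKO. DKO 2 and 4 lay among the controls and DKO 1, 3 and 5 below them, and control 1 was the highest library. Its log2 ratio was -0.62 ± 0.27 (SE; adjusted p = 0.281 in edgeR), and -0.35 without control 1. mt-Rnr1, the rRNA of the small subunit (chrM:70-1024), was at 208, 133, 164 and 131 CPM in control and at 88.7, 162, 110, 147 and 81.1 CPM in DKO. The groups overlapped in the same way, and the log2 ratio was -0.42 ± 0.21 (SE; adjusted p = 0.362 in edgeR), and -0.29 without control 1. As a share of all mitochondrial counts, rRNAs were 43.0% in control 1, 29.9 to 30.3% in controls 2 to 4 and 27.7, 29.8, 27.8, 29.5 and 24.2% in DKO. Every control thus lay above every DKO library, but control 3, at 29.89%, and DKO 2, at 29.84%, were next to each other. The RNA was labelled as polyA RNA, so rRNA and tRNA counts are what passed that step.

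Complex I takes electrons from NADH, and 7 of its subunits are encoded on this chromosome. 6 of these mRNAs had counts, and none passed the test. mt-Nd1 (chrM:2751-3707), a membrane subunit, was at 333, 292, 375 and 274 CPM in control and at 230, 329, 271, 351 and 245 CPM in DKO. The ranges overlapped over most of their length, and the log2 ratio was -0.14 ± 0.14 (SE; adjusted p = 0.660 in edgeR), and -0.05 without control 3. mt-Nd4 (chrM:10167-11544) was at 237, 139, 177 and 129 CPM in control and at 104, 166, 123, 192 and 109 CPM in DKO, with control 1 the highest library. mt-Nd5 (chrM:11742-13565), the longest mRNA gene, was at 163, 165, 219 and 165 CPM in control and at 103, 184, 157, 225 and 122 CPM in DKO, where DKO 4 was the highest. The log2 ratios (± SE) were -0.28 ± 0.21 for mt-Nd4, -0.16 ± 0.20 for mt-Nd5, -0.23 ± 0.18 for mt-Nd2 and -0.21 ± 0.32 for mt-Nd3. mt-Nd6 (chrM:13552-14070), the single mRNA of the other strand, was at 28.6, 15.8, 21.4 and 17.6 CPM in control and at 11.4, 17.1, 16.6, 22.8 and 15.1 CPM in DKO, and the log2 ratio was -0.31 ± 0.20. Adjusted p-values of these 5 genes were 0.496 to 0.802 in edgeR. Without control 1, mt-Nd4 had a log2 ratio of -0.11, mt-Nd6 one of -0.15, mt-Nd2 one of -0.12 and mt-Nd3 one of -0.39, while leaving out control 3 turned mt-Nd3 to 0.10. mt-Nd5 had a log2 ratio of -0.04 without control 3 and also without DKO 1.

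Complexes III and IV pass electrons on to oxygen. mt-Cytb (chrM:14145-15288), the cytochrome b of complex III, was at 453, 492, 616 and 435 CPM in control and at 395, 579, 454, 652 and 444 CPM in DKO. It was the one member with a log2 ratio above 0, at 0.03 ± 0.15 (SE; adjusted p = 0.953 in edgeR), and the sign turned in 5 of 19 alternative settings, among them leaving out control 1 (-0.04). mt-Co1 (chrM:5328-6872) was at 1024, 858, 1156 and 861 CPM in control and at 559, 1000, 663, 964 and 588 CPM in DKO. Here DKO 1, 3 and 5 lay below all controls and DKO 2 and 4 among them, and the log2 ratio was -0.35 ± 0.18 (SE; adjusted p = 0.374 in edgeR). Of the other complex IV mRNAs, mt-Co2 had 2 to 19 counts per library and mt-Co3 had 1 to 9. For ATP synthase, mt-Atp6 had 0 to 7 counts and mt-Atp8 none, so neither group can be described for that complex.

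Of the tRNAs, which carry amino acids to the ribosome, 2 passed the filter, both from the minus strand. mt-Tp, the proline tRNA (chrM:15356-15422), was at 7.36, 5.16, 5.64 and 5.69 CPM in control and at 4.20, 6.13, 4.89, 6.36 and 4.39 CPM in DKO, and the log2 ratio was -0.18 ± 0.17 (SE; adjusted p = 0.660 in edgeR), and -0.09 without control 1. mt-Tq, the glutamine tRNA (chrM:3772-3842), was at 1.71, 0.488, 0.243 and 0.626 CPM in control and at 0.355, 0.418, 0.357, 0.918 and 0.399 CPM in DKO. Its log2 ratio of -0.62 ± 0.52 (SE; adjusted p = 0.612 in edgeR) rested on control 1 and turned to 0.09 without it. Of the 8 tRNA genes on the minus strand 6 had counts, 2888 in all, and of the 14 on the plus strand 4 had counts, 64 in all. Strand here is that of the gene, since the libraries did not keep the strand of the RNA. A read that touches 2 genes of the same strand is counted for neither in any column. These counts thus do not compare levels between the strands. Most counts of minus strand genes were of mt-Tp, with 2571, and mt-Tq, with 281. The sequences of both are printed below, because they are the 2 tRNAs with values.
mt-Tp (chrM:15356-15422, minus strand): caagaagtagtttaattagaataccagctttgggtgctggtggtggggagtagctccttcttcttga
mt-Tq (chrM:3772-3842, minus strand): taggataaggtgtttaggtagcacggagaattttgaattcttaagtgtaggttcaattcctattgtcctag

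Levels per kilobase, which allow genes of different length to be compared, put mt-Co1, mt-Rnr2 and mt-Cytb at the top, in an order that was not the same in both groups. The control means were 644 CPM per kilobase for mt-Rnr2, 631 for mt-Co1 and 436 for mt-Cytb, and without control 1 mt-Rnr2 was at 521, below mt-Co1 at 620. The DKO means were 489 for mt-Co1, 441 for mt-Cytb and 413 for mt-Rnr2. mt-Co1 was above mt-Rnr2 in 3 of 4 control and 5 of 5 DKO libraries. mt-Rnr2 was above mt-Cytb in 4 of 4 control libraries, and in DKO 2 and 4 but not in DKO 1, 3 and 5. Over all 9 libraries, mt-Nd1 had a mean of 314 CPM per kilobase and mt-Rnr1 one of 142. mt-Nd4 at 111, mt-Nd2 at 101 and mt-Nd5 at 91.6 CPM per kilobase came next, then mt-Tp at 82.6, mt-Nd6 at 35.6 and mt-Nd3 at 9.05. mt-Nd6 was above mt-Nd3 in 9 of 9 libraries, and mt-Nd3 above mt-Tq, at 8.62, in 6 of 9. The levels of mt-Co1, mt-Nd4, mt-Nd5, mt-Nd6 and mt-Nd3 are subject to the shared and overlapping sequence described above. The values of mt-Tp and mt-Tq count reads that touch the gene, so their places in this order are not levels of the tRNAs.

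Within the mRNAs, mt-Cytb had a larger part and mt-Co1 mostly a smaller part of the counts in DKO libraries. mt-Cytb made up 19.0, 23.8, 22.9 and 22.0% of the counts of the 13 mRNAs in control and 26.7, 24.2, 25.5, 25.6 and 27.7% in DKO, so that the groups did not overlap. mt-Co1 made up 42.8, 41.6, 42.9 and 43.6% in control and 37.8, 41.8, 37.3, 37.9 and 36.7% in DKO. DKO 2 reached the control range, and the other 4 DKO libraries lay below it. The means were 21.9% ± 2.10 and 26.0% ± 1.30 for mt-Cytb and 42.7% ± 0.831 and 38.3% ± 2.03 for mt-Co1 (SD, n = 4 and 5). The other mRNAs overlapped between the groups: mt-Nd1 took 13.9 to 14.1% in control and 13.8 to 15.5% in DKO, mt-Nd5 6.81 to 8.38% and 6.97 to 8.84%, and mt-Nd2 4.50 to 6.19% and 4.63 to 5.14%. mt-Nd4 took 9.92% in control 1, against 6.52 to 6.73% in controls 2 to 4 and 6.81 to 7.56% in DKO. mt-Nd6 took 1.20% in control 1, against 0.768 to 0.890% in the other controls and 0.717 to 0.941% in DKO. By complex, the 7 complex I mRNAs took 35.3% ± 1.90 in control and 35.7% ± 1.20 in DKO (SD, n = 4 and 5), and their ranges overlapped. These shares add up to a fixed total, so they are not separate observations, and no test is given for them.

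**Figure D4:**
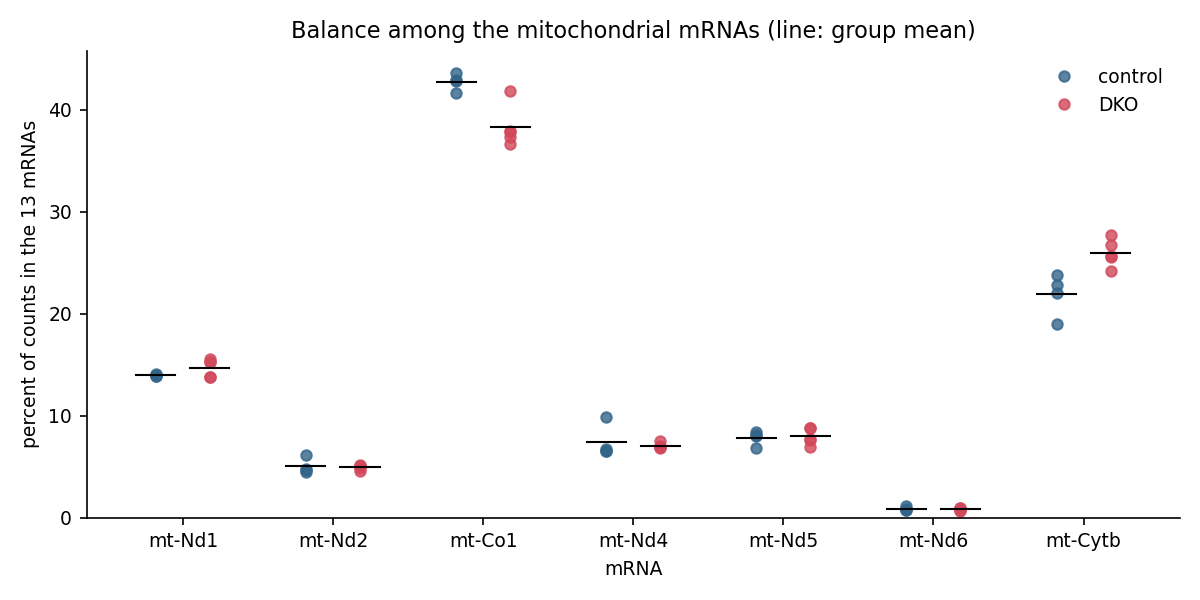
Each mRNA with over 0.5% of the counts of the 13 mitochondrial mRNAs, as a percent of those counts, 1 point per library with the group mean as a line. The DKO points lie above the control points for mt-Cytb, and 4 of 5 lie below them for mt-Co1.

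Ratios of single genes do not depend on how a library is scaled, and 4 were tested with a two-sided exact permutation test over every relabelling of the libraries, whose smallest possible p is 0.0159. With adjustment over the 4 ratios by Benjamini-Hochberg, none passed 0.05, and a single ratio at the smallest p could not, since it becomes 0.0635. mt-Cytb over mt-Nd1, the last against the first mRNA of the heavy strand, was 1.36, 1.68, 1.64 and 1.59 in control and 1.72, 1.76, 1.68, 1.86 and 1.81 in DKO. The ranges overlapped at control 2 and DKO 3, with a difference of 0.17 on the log2 scale (exact permutation p = 0.0317, adjusted 0.0635), or 0.10 without control 1. mt-Nd1 over mt-Rnr2, an mRNA against the rRNA upstream of it, was 0.208, 0.380, 0.379 and 0.382 in control and 0.480, 0.384, 0.468, 0.383 and 0.567 in DKO. The groups did not overlap, but DKO 2 and 4 were next to controls 2 to 4. The difference of 0.46 on the log2 scale (exact permutation p = 0.0159, adjusted 0.0635) fell to 0.25 without control 1, where the adjusted exact permutation p was 0.143. Fewer relabellings are possible without control 1, so the smallest possible p is higher there. The groups still did not overlap, and the higher adjusted p does not show a loss of separation.

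The other ratios did not separate the groups. mt-Rnr2 over mt-Rnr1 was 7.72, 5.79, 6.01 and 5.45 in control and 5.40, 5.30, 5.27, 6.24 and 5.34 in DKO, a log2 difference of -0.17 (exact permutation p = 0.190, adjusted 0.254), and of -0.06 without control 1. mt-Nd6 over mt-Nd5, the light strand mRNA against its neighbour on the heavy strand, was 0.175 in control 1 and 0.0960, 0.0980 and 0.106 in controls 2 to 4. In DKO it was 0.111, 0.0930, 0.105, 0.101 and 0.124. The log2 difference was -0.11 (exact permutation p = 0.714, adjusted 0.714), and it turned to 0.09 without control 1.

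**Figure D5:**
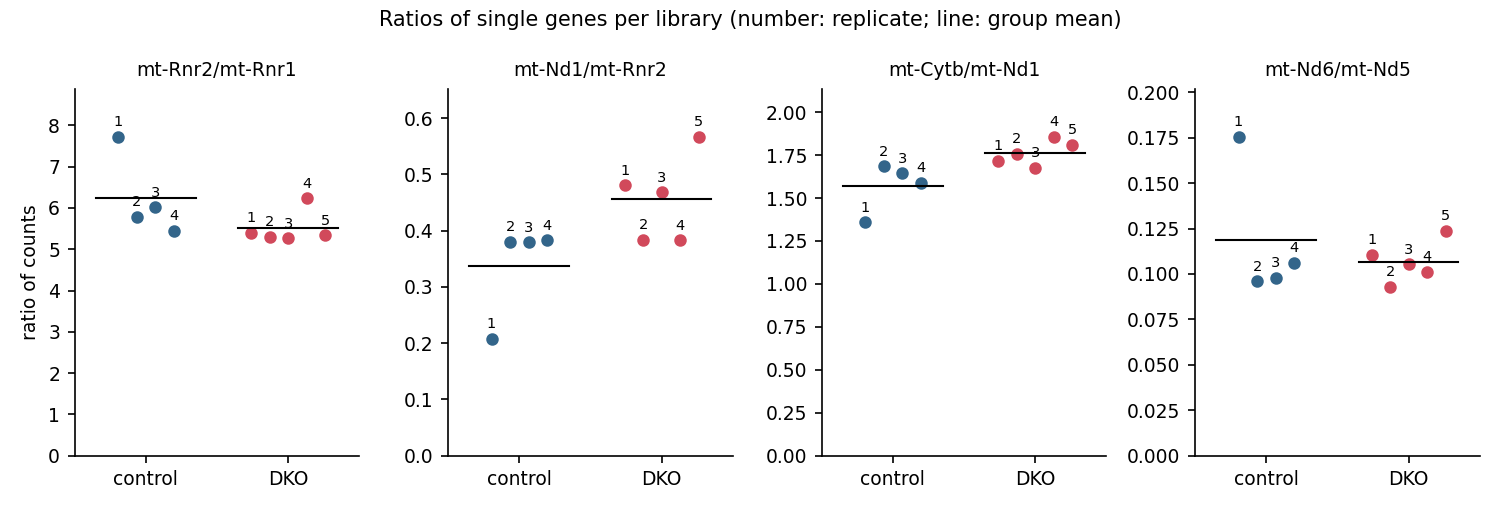
Ratios of counts of 4 pairs of mitochondrial genes, 1 point per library with its replicate number and the group mean as a line; each axis starts at 0. Control 1 is the farthest control in all 4 panels, and the groups do not overlap for mt-Nd1 over mt-Rnr2.

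Among nuclear genes that copy, maintain and mature the mitochondrial genome and its RNA, 1 passed the edgeR test, Top1mt, where 2.83% of all genes did. Of 12 genes of mitochondrial transcription 0 rose and 0 fell in edgeR (1 lower at an unadjusted p under 0.05, and 0 by DESeq2 and by limma-voom), with a median log2 ratio of -0.13, and 8 were below 0. Polrmt, the polymerase, was at 56.4 ± 9.43 CPM in control and 63.6 ± 7.58 in DKO (log2 ratio 0.18). Tfam, which packages the DNA and opens promoters, was at 76.1 ± 10.1 and 70.5 ± 3.54 CPM (-0.10), Tfb2m, the other promoter factor, had 0.04, and Tefm, the elongation factor, had -0.28 on the log2 scale. Adjusted p-values of these 4 genes were 0.317 to 0.890 in edgeR. Without control 1 the log2 ratios of Polrmt, Tfam and Tfb2m were 0.06, -0.05 and 0.0048. Of 12 genes of replication and maintenance 0 rose and 1 fell, with a median of -0.09. That gene was Top1mt, a topoisomerase that relaxes mitochondrial DNA, at 8.43, 6.55, 5.09 and 6.05 CPM in control and 4.05, 3.22, 4.22, 3.96 and 4.12 CPM in DKO (log2 ratio -0.72 ± 0.16, SE; adjusted p = 0.0384 in edgeR). The groups did not overlap, but the call was lost in 10 of 19 alternative settings, among them leaving out control 2, control 4 or any 1 DKO library (adjusted p up to 0.0950), with the direction kept in all 19. Polg, the polymerase that copies the DNA, had a log2 ratio of 0.25. Twnk, the helicase, which was counted in the transcription list, had one of -0.16. Neither passed (adjusted p = 0.536 and 0.690, edgeR). Without control 1 the log2 ratios of Polg and Twnk were 0.07 and -0.29.

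The 33 tested genes of RNA processing, polyadenylation, stability and decay gave 0 calls in edgeR in either direction, 3 by DESeq2 and 1 by limma-voom. At an unadjusted p under 0.05, 5 were lower and 1 higher in DKO, against 8.25 and 7.74% of all genes. The median was -0.07 and 22 were below 0, against -0.01 and 51.4% over all genes. The gene called by both of the other tools was Nsun4, an rRNA methyltransferase, at 25.2 ± 3.25 CPM in control and 19.3 ± 1.36 in DKO (log2 ratio -0.37, adjusted p = 0.0915 in edgeR; named after its values were seen). Elac2 and Trmt10c, which cut tRNAs out of the precursor, had log2 ratios of -0.07 and -0.12. Mtpap, which adds polyA tails, had -0.06, Lrpprc, which stabilises mRNAs, had 0.01, and Pnpt1 and Supv3l1, which degrade RNA, had -0.11 and -0.06. Adjusted p-values of these 6 genes were 0.613 to 0.984 in edgeR. Without control 1 the log2 ratio of Elac2 was -0.16, that of Trmt10c -0.02, that of Mtpap -0.11, that of Lrpprc -0.12 and that of Pnpt1 -0.18. Slirp, the partner of Lrpprc, had 49 unstranded counts and 52601 in the strand columns, and there it was at 103 ± 9.42 CPM in control and 105 ± 4.29 in DKO (log2 ratio 0.04, adjusted p = 0.840, edgeR on summed strand columns). The summed CPM of the RNA processing list was 1438 to 1569 in control and 1402 to 1419 in DKO. That of the transcription list was 337.3 to 397 and 324 to 337.2, so the groups did not overlap in either list but nearly touched in the latter. Control 1 was the highest library in both sums. The sums of the replication list, of the translation factors and of the nuclear genes of complexes I, III and IV and of ATP synthase overlapped. Of all single genes 8.68% did not overlap, but that share was not determined for sums of genes. Mitochondrial translation factors gave 0 calls in edgeR among 14 genes (2 lower and 1 higher at an unadjusted p under 0.05), 0 by DESeq2 and 1 by limma-voom, with a median of -0.05.

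Nuclear genes of the same complexes gave 1 call, where edgeR called 2.83% of all genes. 0 of 36 complex I genes, 0 of 9 complex III genes and 0 of 16 ATP synthase genes passed the test in edgeR, with medians of -0.05, 0.01 and -0.04 on the log2 scale. At an unadjusted p under 0.05 these were 0, 0 and 1 (higher in DKO, as 7.74% of all genes were), DESeq2 called 0 in each list, and limma-voom called 0, 0 and 1 (Atp5b, higher in DKO). Of 11 complex IV genes, 0 rose and 1 fell. That was Cox8a, a small structural subunit, at 240, 176, 158 and 179 CPM in control and 101, 115, 100.2, 136 and 104 CPM in DKO (log2 ratio -0.74 ± 0.13, SE; adjusted p = 0.0115 in edgeR). The groups did not overlap, and the call was kept in 18 of 19 alternative settings. Control 1 held more of these transcripts than the other libraries: complex I genes summed to 3544 CPM there, against 2170 to 2681 CPM in the other 8. In DKO libraries 1, 3 and 5, which were low in mitochondrial counts, the sums were 2446, 2395 and 2588 CPM, and in DKO 2 and 4 they were 2368 and 2681 CPM.

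Markers of other cells were also read. The 12 myeloid markers, 8 of them above 1 CPM, summed to 172 to 199 CPM in control and 117 to 127 CPM in DKO, without overlap. Ctss led the list with 81.7 and 51.1 CPM on average and fell in DKO (log2 ratio -0.66, adjusted p = 0.00734 in edgeR). Cd68, a lysosomal protein of macrophages, also fell, with 29.3 ± 4.90 and 16.7 ± 2.49 CPM (log2 ratio -0.80, adjusted p = 0.0138 in edgeR). Itgam was at 58.9 and 37.9 CPM on average, and Ctss, Itgam and Cd68 made up most of the sums. Csf3r was at 0 CPM in every control and at 0 to 0.234 CPM in DKO. S100a9 was at 0 to 0.0427 CPM in control and 0 to 0.378 CPM in DKO. Of 10 myeloid genes tested, 7 lay below 0 and 3 above (Lyz2, Mpeg1 and Csf1r), and edgeR called 2, against 2.83% of all genes. Lyz2, named after its values were seen, was higher in DKO, at 2.45 ± 1.12 and 5.83 ± 4.39 CPM (log2 ratio 1.27, adjusted p = 0.206 in edgeR). DESeq2 called 4 of the list, Ctss, Itgam, Cd68 and Lyz2, and DKO 1 was at 13.6 CPM for Lyz2. B cell markers, mostly Ighm, summed to 187 to 268 and 195 to 214 CPM, with Pax5 at 0 in every library. Erythroid and platelet markers summed to 6.80 to 35.9 and 10.2 to 35.4 CPM. The CD4 list summed to 30.4 to 39.1 and 34.4 to 46.0 CPM, and the CD8 list to 9211 to 12745 and 8969 to 9685 CPM. Of the 8 CD8 genes, 7 had log2 ratios below 0, against 51.4% of all genes. In edgeR 4 were lower at an unadjusted p under 0.05 (8.25% of all genes), and 1 passed the test (2.83% of all genes). That was Cd8b1, a chain of the CD8 coreceptor, at 2738, 2026, 2076 and 2202 CPM in control and 1547, 1764, 1578, 1758 and 1824 CPM in DKO (log2 ratio -0.40 ± 0.09, SE; adjusted p = 0.0428 in edgeR). The groups did not overlap, but the call was lost on leaving out any 1 library other than control 1 (adjusted p up to 0.127). Cd8a was at 723 ± 70.2 and 713 ± 34.9 CPM (SD, n = 4 and 5; adjusted p = 0.973 in edgeR). In DKO libraries 1, 3 and 5 the myeloid sums were 127, 117 and 120 CPM, against 118 and 117 CPM in DKO 2 and 4. Erythroid and platelet sums were 32.4, 16.3 and 35.4 CPM in the former and 10.2 and 11.5 CPM in the latter. In controls 1 to 4 these sums were 25.35, 35.9, 13.8 and 6.80 CPM, beside mitochondrial shares of 0.421, 0.297, 0.385 and 0.283%. Among the controls, control 4 had the lowest sum and the lowest share, while control 2 had the highest sum and a share below those of controls 1 and 3. The part of other cells in the mitochondrial values was not tested.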

How the data were processed

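For each of the 9 libraries (4 control, 5 DKO, grouped by title) the authors deposited a count of whole reads for every gene in STAR's layout, with an unstranded column and 1 column per strand. Reads had been trimmed with Trim Galore 0.6.0 and aligned with STAR 2.7.8a to mm10, per the submitters' processing notes. The annotation release is not given in the sources used here; 54573 of the 55471 gene identifiers were found with their version in GENCODE M21. Lines for reads outside genes were not used: 10.3 to 16.7% of reads were unmapped, 5.80 to 6.79% multimapping, 4.01 to 5.20% in no feature and 4.97 to 5.31% ambiguous. Those reads, and any shared by near-identical copies, are missing from the counts.

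The main test, on the unstranded column, was the robust quasi-likelihood F-test of edgeR 4.0.16 (R 4.3.3) with TMM factors of 0.987 to 1.03 and filterByExpr defaults (count 10, total 15), adjusted by Benjamini-Hochberg over 14918 genes at 0.05. The common biological coefficient of variation was 20.9%. CPM were computed from counts in genes. Ratios were tested with an exact permutation test written for this purpose, which was checked on random numbers against that of scipy 1.17.1. Transcripts were compared with blastn 2.17.0 (word size 20, at least 100 bases). DESeq2 1.42.0, limma 3.58.1, other filters, scalings, count columns, a replicate block and leaving out each library were alternatives. The edgeR step was tested on simulated data. Libraries of 1 group differed by more than sampling noise (lowest chi-square 9.70 per degree of freedom).

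The members and gene lists were chosen with earlier results of these data known. Named were every mRNA and rRNA, tRNAs with a mean of 10 or more counts, list genes past the threshold (cell type markers included), 13 regulators, the targeted genes, and the 5 near-identical nuclear copies with most counts. Figures were drawn with matplotlib 3.10.9.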

Additional observations from a re-analysis of the deposited data

Results flagged for a closer look

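In 50 checks of a quantity within a group, 9 had a library farther from its group than Dixon's 95% critical value allows. Chance gives about 1 in 20, and the checks share genes and libraries. Control 1 accounted for 4 of them: mt-Nd2 took 6.19% of mRNA counts there and mt-Nd4 took 9.92%, mt-Nd1 over mt-Rnr2 was 0.208, and mt-Nd6 over mt-Nd5 was 0.175. The same library had the highest unmapped share, 16.7% of reads. DKO 4 accounted for 3: mt-Tq was at 0.918 CPM, mt-Nd4 took 7.56% of mRNA counts, and mt-Rnr2 over mt-Rnr1 was 6.24. In DKO 2, mt-Co1 took 41.8% of mRNA counts, above the other 4 DKO libraries. In control 3, mt-Nd5 was at 219 CPM, above the other 3 controls, which lay between 163 and 165 CPM.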

How the results depend on the processing

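The count of members past the threshold was 0 under all 19 alternatives (lowest adjusted p 0.141 by DESeq2, 0.629 with the replicate block), and also with each library left out (0 to 0). Over all genes, calls numbered 422, against 1059 by DESeq2, 996 by limma-voom, 67 with the block, 749 without control 1 and 179 without DKO 1. The share difference stayed below 0, from -0.0950 to -0.0481 percentage points with each library left out, and -0.0322 for mRNAs alone. Leaving out libraries moved the log2 difference of mt-Rnr2/mt-Rnr1 from -0.23 to -0.06, mt-Nd1/mt-Rnr2 from 0.25 to 0.54, mt-Cytb/mt-Nd1 from 0.10 to 0.21 and mt-Nd6/mt-Nd5 from -0.20 to 0.0891, the last being a reversal without control 1.

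The cause of the other reversals was not tested: mt-Tq, at -0.62, was 0.0855 without control 1 and -0.966 without DKO 4. The rest had log2 ratios of -0.21 to 0.03. mt-Nd3 was 0.0972 without control 3 and -0.393 without control 1, and mt-Cytb was -0.0672 by limma-voom, 0.149 without control 3 and -0.0404, -0.0247, -0.0308 and -0.0787 without control 1, control 4, DKO 2 and DKO 4. Lrpprc turned to -0.0318 by limma-voom, -0.00739 under the stricter filter, -0.0272 in the second strand column, and -0.115, -0.00241, -0.0261 and -0.00358 without control 1, control 2, DKO 2 and DKO 3, with 0.138 without control 3. Twnk turned to 0.0182 and 0.0649 in the summed and second strand columns.

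Same-numbered libraries did not deviate together (correlations -0.05, -0.01, 0.01 and -0.12), so the numbers do not pair them. With the replicate block, the log2 differences of the 4 ratios, in the order above, were -0.16, 0.38, 0.16 and -0.17, where 4 pairs cannot give a p below 0.125. Top1mt, Cox8a, Cd8b1 and Ctss lost their calls with the block (adjusted p = 0.207, 0.0866, 0.196 and 0.0922 in edgeR). No change can be read for the 14 members at 0 and the 11 with a mean under 10 counts. Depth was not the single limit for mt-Ty, which went from 0 to 2601 counts in the strand columns of the same libraries. In those columns 11 members stayed at 0. With 0 unstranded counts, the 2601 counts of mt-Ty are of reads that touch genes on both strands, so they are not a level of mt-Ty.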
